A study of Mus musculus with 24 samples.

Results

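The transcripts of 9 apolipoproteins (*Apoa1*, *Apoa2*, *Apoa4*, *Apoa5*, *Apob*, *Apoc1*, *Apoc3*, *Apoe* and *Apom*) and of *Mttp*, the microsomal triglyceride transfer protein, were followed in mice with a liver-specific knockout of Crif1. The 10 genes were taken by symbol from a table of 24532 genes, and all 10 were present under 1 identifier each. Expression was measured as FPKM, sequenced fragments per 1000 bases of transcript relative to each library's total. Crif1, listed as *Gadd45gip1*, is a protein of the mitochondrial ribosome that is needed to make respiratory chain subunits. LKO mice carried Alb-Cre;Crif1flox/flox, in which the albumin promoter drives Cre mainly in hepatocytes, and Ctrl mice carried Crif1flox/flox without Cre. All mice were C57BL/6 and 8 weeks of age. Liver, inguinal white adipose tissue (iWAT), gastrocnemius muscle (GM) and hypothalamus gave 3 Ctrl and 3 LKO libraries each, 24 in all. The labels do not tie tissues to mice, and the p-values measure the spread between these libraries.

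Depth, estimated from the deposited coverage and FPKM, was between 4.45 and 8.09 gigabases. In liver, *Gadd45gip1* was at 14.6, 12.53 and 13.6 FPKM in the Ctrl libraries and at 5.40, 2.002 and 2.51 in the LKO libraries (log2 fold change -1.84, SE 0.27, adjusted p 0.00357). Library LKO 1 therefore held the highest remaining level. All 9 Kupffer cell and macrophage markers were called higher in LKO liver, with summed levels of 140.0 to 145 FPKM in Ctrl and 299.5 to 482 in LKO. These 9 calls stand against 38.3% of all liver genes called higher. The 5 bile duct markers summed to 30.7 to 31.8 FPKM in Ctrl and 41.6 to 88.9 in LKO, and the 6 monocyte and neutrophil markers to 4.64 to 4.68 and 28.9 to 51.6. Only 1 marker of each of these lists reached 1 FPKM in every Ctrl library, so no calls are counted for them. Several libraries of other tissues held liver transcripts. Albumin (*Alb*) was at 167 and 125 FPKM in GM Ctrl 1 and 3 and at 65.6 in GM LKO 1, against 8.32 to 22.8 in the other GM libraries. In hypothalamus Ctrl 3 it was at 10.98 FPKM, against 0.0657 to 1.14 in the other hypothalamus libraries. In iWAT it was at 12.8 to 23.8 FPKM in Ctrl and 35.2 to 49.2 in LKO. In Ctrl iWAT, however, albumin did not go with all liver transcripts. Of 10 genes of secreted hepatocyte proteins, 3 reached 1 FPKM in every Ctrl iWAT library, while *Ttr*, *Fgb*, *Fga* and *Tat* stayed under 0.1.

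Apolipoproteins are the protein coats and enzyme cofactors of the particles that carry lipids in plasma. In hepatocytes, the protein of *Apob* is loaded with triglyceride by that of *Mttp* in the endoplasmic reticulum, and the particle leaves the cell as very low density lipoprotein (VLDL). *Apoa1* and *Apoa2* encode the main proteins of high density lipoprotein (HDL), and *Apoe*, *Apoc1*, *Apoc3*, *Apoa4* and *Apoa5* encode proteins that move between particles and influence lipase activity or receptor uptake. The liver and the small intestine are the main sources of these proteins, and macrophages and astrocytes also make apolipoprotein E.

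In mm10, *Apoa1* (chr9:46228630-46230469, plus strand), *Apoc3* (chr9:46233050-46235636, minus strand), *Apoa4* (chr9:46240844-46243458, plus strand) and *Apoa5* (chr9:46268608-46271921, plus strand) lie within 43292 bases. Between neighbours in that order there are 2580, 5207 and 25149 bases. *Apoe* (chr7:19696244-19699188) and *Apoc1* (chr7:19689480-19692659), both on the minus strand, are separated by 3584 bases. *Apoa2* lies at chr1:171221564-171226379 (plus strand), *Apob* at chr12:7977677-8016839 (plus strand), *Apom* at chr17:35128997-35131752 (minus strand) and *Mttp* at chr3:138089855-138143388 (minus strand). The span of *Apoa2* overlaps that of *Tomm40l* on the opposite strand, and reads of the pair cannot be told apart where they overlap, because the library kit does not mark strand.

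The 250 bases before the transcript start are printed for *Apoa4* and *Apoa2*, the members called in liver, and for *Apoa1*, which shares a gene cluster with *Apoa4* and whose liver level lay on the other side of the controls. The sequences are from RefSeq (GRCm38.p6), where 8 of the 10 genes had a promoter entry. Capitals mark matches, on either strand, to 7 motifs: the TATA box TATAAA, the CCAAT box, the nuclear receptor half-site AGGTCA, a direct repeat of that half-site with 1 base between, the HNF4A-type element CAAAGTCCA, its shorter form CAAAGNNC, and the CEBP-ATF element TGATGNAAN.
*Apoa4*, chr9:46240594-46240843, plus strand: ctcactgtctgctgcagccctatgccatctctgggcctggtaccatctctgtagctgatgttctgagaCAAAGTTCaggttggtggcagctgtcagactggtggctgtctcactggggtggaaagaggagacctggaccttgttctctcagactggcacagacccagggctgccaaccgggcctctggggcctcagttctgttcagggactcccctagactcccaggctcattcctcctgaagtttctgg
*Apoa1*, chr9:46228380-46228629, plus strand: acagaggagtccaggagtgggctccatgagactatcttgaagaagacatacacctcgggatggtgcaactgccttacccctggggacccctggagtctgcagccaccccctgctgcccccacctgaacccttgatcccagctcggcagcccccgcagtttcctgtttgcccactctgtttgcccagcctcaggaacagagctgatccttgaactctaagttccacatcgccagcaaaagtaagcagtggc
*Apoa2*, chr1:171221314-171221563, plus strand: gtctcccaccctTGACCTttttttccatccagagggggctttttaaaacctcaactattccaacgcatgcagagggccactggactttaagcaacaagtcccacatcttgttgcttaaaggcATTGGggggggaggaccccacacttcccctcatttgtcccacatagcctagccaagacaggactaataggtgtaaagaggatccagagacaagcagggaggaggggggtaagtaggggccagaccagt
The *Apoa4* stretch held 1 match, to the shorter HNF4A-type form, at base -182 from the start, and the *Apoa1* stretch held none. The *Apoa2* stretch held 1 match to the CCAAT box and 1 to the half-site, both on the minus strand. RefSeq gives *Apoa2* a second start, whose window (chr1:171224804-171225053) held 1 match to the TATA box and 1 to the CCAAT box and none to the half-site. Among 32851 mouse promoters of the same length, 15.4% held the shorter HNF4A-type form, 33.8% the CCAAT box, 14% the half-site, 12.4% the TATA box and 3.44% the CEBP-ATF element. The full HNF4A-type element was in 0.384% of these promoters and the direct repeat in 0.0335%, and neither was in any of the 8 genes. The shorter form and the half-site were added after the sequences had been read, and their matches include those of the full element and of the repeat. A match describes letters and not binding.

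In liver, *Apoa4* rose and *Apoa2* fell, and the other 8 genes did not pass the test. A gene was called when limma, run on log2(FPKM + 1) over 10956 liver genes, gave an adjusted p under 0.05. These 2 of 10 calls stood against 43.8% of all genes tested, of which 38.3% were called higher and 5.49% lower. For 7 of the 10 genes no LKO value overlapped the Ctrl values, against 61.1% of all genes. The median log2 fold change was -0.19 over the 10 genes and 0.33 over all genes tested. In these bulk samples, fewer hepatocytes and less RNA per hepatocyte cannot be told apart. Of 10 other secreted hepatocyte proteins, 2 were called higher and 0 lower on the deposited scale. Their summed levels were 64550 to 69373 FPKM in Ctrl and 60363 to 86581 in LKO. The scale between libraries, treated below, moves these sums as well.

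**Figure D1:**
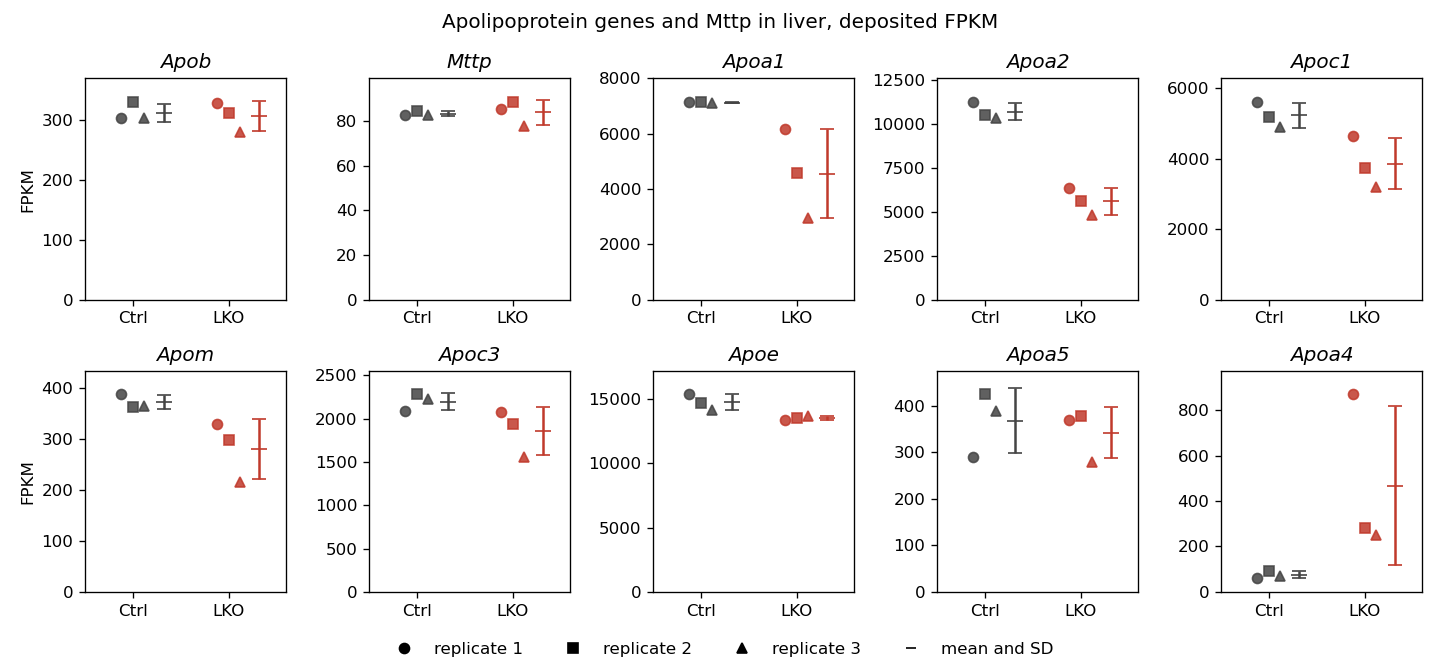
Deposited FPKM of the 10 genes in liver, 1 panel per gene with its own axis from 0, where points are libraries (shape gives the replicate number) and the dash with bars is the mean and SD of 3 libraries. *Apoa4* was between 62.2 and 94.3 FPKM in Ctrl and between 251 and 869.6 in LKO, *Apoa2* was lower in each LKO library, and *Apob* and *Mttp* overlapped.

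*Apoa4* encodes a lipid-responsive apolipoprotein of chylomicrons, VLDL and HDL. It was at 62.2, 94.3 and 71.2 FPKM in Ctrl liver and at 869.6, 283 and 251 FPKM in LKO liver. Each LKO library was above each Ctrl library, and LKO 1 stood far above the other two. The means were 75.9 ± 16.5 (SD, n = 3) and 468 ± 348 FPKM, and the log2 fold change was 2.39 (SE 0.45, adjusted p 0.00792). In the ranking of all genes by FPKM, *Apoa4* moved from places 693 to 1007 in Ctrl liver to places 65 to 295 in LKO liver. Without LKO 1 the log2 fold change was 1.82 (adjusted p 0.000106), and the call held. With ordinary variances, estimated gene by gene, the adjusted p was 0.0606. The small intestine is the main site of *Apoa4* expression in mice, and of 5 enterocyte genes *Alpi*, *Lct* and *Sis* were under 0.1 FPKM in all liver libraries. *Vil1* was at 0.01197 to 0.0478 FPKM in Ctrl and 0.0349 to 0.227 in LKO. *Fabp2* overlapped between the groups, at 45.4 to 62.3 FPKM in Ctrl and 18.5 to 77.4 in LKO.

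*Apoa2* was at 11244, 10521 and 10312 FPKM in Ctrl and at 6367, 5605 and 4843 FPKM in LKO liver. The groups did not overlap. Means were 10693 ± 489 and 5605 ± 762 FPKM (SD, n = 3), with a log2 fold change of -0.94 (SE 0.19, adjusted p 0.00968). The call was lost without Ctrl 2 (adjusted p 0.0506) and without LKO 2 (adjusted p 0.0601), while the log2 fold change stayed at -0.95 and -0.94. With quantile normalization the log2 fold change was -0.17 (adjusted p 0.316) and the groups overlapped. That method sets each value by its rank within the library. *Apoa2* ranked 4 to 5 in Ctrl and 5 to 6 in LKO liver, so a fall in its level could hardly show there. *Tomm40l*, the gene on the opposite strand, was at 33.2 to 36.6 FPKM in Ctrl and 17.3 to 21.6 in LKO. These levels were far below those of *Apoa2*, so shared reads limit mainly the reading of *Tomm40l*.

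*Apoa1*, the main protein of HDL, was nearly the same in the Ctrl libraries, at 7145, 7137 and 7105 FPKM, and spread widely in LKO, at 6164, 4573 and 2942 FPKM. The LKO values all lay below the Ctrl values, with a log2 fold change of -0.71 (SE 0.28, adjusted p 0.0707). *Apom*, whose protein carries sphingosine-1-phosphate on HDL, was at 387, 363 and 364 FPKM in Ctrl and at 329, 298 and 215 in LKO (log2 fold change -0.43, adjusted p 0.0735). As for *Apoa1*, LKO 3 was the lowest library. Without LKO 1 both passed the test, with log2 fold changes of -0.96 (adjusted p 0.00377) and -0.55 (adjusted p 0.0101). Without LKO 3 they were smaller, at -0.43 (adjusted p 0.133) and -0.25 (adjusted p 0.138).

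Of the C apolipoproteins, *Apoc1*, which encodes an inhibitor of lipoprotein uptake, was at 5597, 5173 and 4884 FPKM in Ctrl and at 4634, 3735 and 3198 in LKO (log2 fold change -0.45, adjusted p 0.0889). *Apoc3*, an inhibitor of lipoprotein lipase, was at 2092, 2282 and 2222 FPKM in Ctrl and at 2081, 1939.9 and 1553 in LKO (log2 fold change -0.25, adjusted p 0.218). Neither pair of groups overlapped and neither passed the test. *Apoc1* was called without LKO 1 (log2 fold change -0.59, adjusted p 0.00943), and *Apoc3* was at -0.13 (adjusted p 0.49) without LKO 3. *Apoe*, the ligand through which remnant particles bind their receptors, was at 15371, 14725 and 14130.4 FPKM in Ctrl and at 13386, 13504 and 13674 in LKO, the second most abundant liver transcript in all 6 libraries. Its groups did not overlap, but the log2 fold change was -0.12 (SE 0.19, adjusted p 0.601). 

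The core of the VLDL assembly machinery was close to the control level on the deposited scale. *Apob* was at 304, 329.8 and 303 FPKM in Ctrl and at 329, 311 and 279.6 in LKO (log2 fold change -0.03, SE 0.11, adjusted p 0.843). *Mttp* was at 82.7, 84.3 and 82.6 FPKM in Ctrl and at 85.1, 88.3 and 77.6 in LKO (log2 fold change 0.0063, SE 0.10, adjusted p 0.962). *Apoa5*, whose protein promotes lipolysis by lipoprotein lipase, was at 289, 424 and 388 FPKM in Ctrl and at 369, 379 and 279 in LKO (log2 fold change -0.10, adjusted p 0.679). The groups overlapped for all 3 genes. A p that misses the threshold does not show that they were equal.

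The LKO libraries differed among themselves. LKO 3 held the lowest value of the 6 liver libraries for 8 of the 10 genes, all but *Apoe* and *Apoa4*. LKO 1 held the highest LKO value for 7 of the 10. Without LKO 1, 5 of the 10 genes were called (*Apoa4* higher, *Apoa1*, *Apoa2*, *Apoc1* and *Apom* lower), against 67.4% of all genes tested. Over all genes, the calls went from 4794 to 7036 without LKO 1, 1401 without LKO 2 and 2753 without LKO 3, and to 2353, 1933 and 1891 without Ctrl 1, 2 and 3.

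The calls depended on the scale between libraries. The median-ratio factors, computed over the liver genes tested, were 0.863 to 0.892 for Ctrl and 1.00, 1.16 and 1.31 for LKO 1, 2 and 3. Dividing by them moved the median of all genes from 0.33 to -0.0062 and the calls over all genes from 4193 higher and 601 lower to 1859 higher and 1668 lower. Quantile normalization gave 1570 higher and 1732 lower. After median-ratio scaling 3 of the 10 genes were called, 1 higher and 2 lower, against 32.2% of all genes, 17% higher and 15.2% lower. The median of the 10 was -0.59, and 9 of the 10 did not overlap, against 50.7% of all genes. *Apoa4* remained higher at 1.99 (SE 0.55, adjusted p 0.0346) and *Apoa2* lower at -1.34 (SE 0.27, adjusted p 0.0144). *Apom* was called lower at -0.82 (SE 0.24, adjusted p 0.0430). With quantile normalization *Apoa4* alone was called (2.29, adjusted p 0.0223), and *Apoa1*, *Apoc1* and *Apoc3* turned to 0.023, 0.28 and 0.27. Those values follow from rank within the library, which moved little for abundant transcripts. *Apoc1*, for example, ranked 12 to 16 in Ctrl and 10 to 11 in LKO although its FPKM were lower. The scaled levels of *Apom* were 434, 420.5 and 420.8 in Ctrl and 328, 256 and 164 in LKO.

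With median-ratio scaling, *Mttp* was at 92.6, 97.7 and 95.5 in Ctrl and at 84.9, 75.9 and 59.4 in LKO, so that its log2 fold change turned from 0.0063 to -0.39 (adjusted p 0.0744). *Apob* was at 341, 382 and 350.1 in Ctrl and at 328, 267 and 214 in LKO (-0.43, adjusted p 0.0977). Neither pair of groups overlapped any longer. With scaling and without LKO 1, a setting chosen after the values had been seen, 8 of 10 genes were called, all but *Apoe* and *Apoa5*, and all but *Apoa4* lower, against 48.9% of all genes. *Apoa4* was then at 1.35 (adjusted p 0.00244), its lowest log2 fold change in any setting run. *Apob* was at -0.55 (adjusted p 0.0124) and *Mttp* at -0.47 (adjusted p 0.0157).

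**Figure D2:**
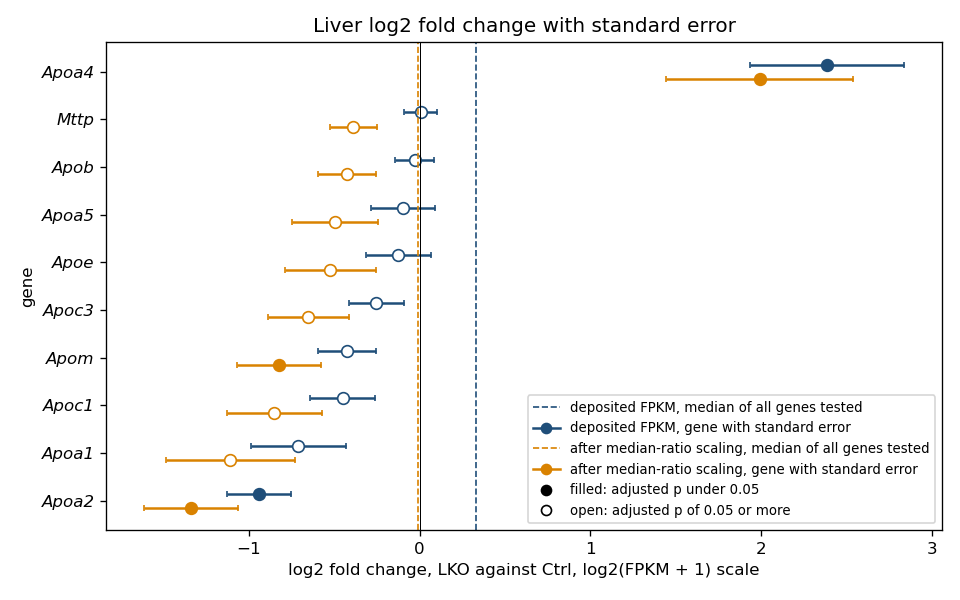
Liver log2 fold change, LKO against Ctrl, on the log2(FPKM + 1) scale with the standard error for each of the 10 genes, from the deposited FPKM (blue) and after median-ratio scaling (orange). Filled points had an adjusted p under 0.05, and the dashed lines mark the median of all genes tested, 0.33 before and -0.0062 after scaling. Scaling divides all genes of a library by the same factor, so the distance of each gene to that median is nearly fixed and is no result.

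Ratios between members within a library do not depend on its scale. Per unit of *Apob*, *Apoa2* was at 37.0, 31.9 and 34.0 in Ctrl and at 19.4, 18.01 and 17.3 in LKO, a log2 difference of -0.91. *Apoa1* per *Apob* was at 23.5, 21.6 and 23.5 in Ctrl and at 18.7, 14.7 and 10.52 in LKO. The same ratio was also lower in each LKO library for *Apoc1* (log2 difference -0.42), *Apom* (-0.40) and *Apoc3* (-0.22), and it overlapped for *Apoa5*, *Apoe* and *Mttp*. *Mttp* per *Apob* was between 0.256 and 0.273 in Ctrl and between 0.259 and 0.284 in LKO. Within the chromosome 9 cluster, *Apoa4* per *Apoa1* was 0.00870, 0.0132 and 0.01003 in Ctrl and 0.141, 0.0619 and 0.0853 in LKO, a log2 difference of 3.11. Each of these differences without overlap had a two-sided exact permutation p of 0.1, the smallest that 3 against 3 libraries can give.

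The 10 transcripts together made up 7.64, 7.52 and 7.14% of all TPM, in which the values of every library add up to the same total, in Ctrl liver and 6.77, 6.04 and 5.41% in LKO liver. The groups did not overlap, and the difference of -1.36 percentage points had an exact two-sided permutation p of 0.1, the smallest possible. Without *Apoe*, the most abundant of them, the share was 4.61 to 4.88% in Ctrl and 2.70 to 4.15% in LKO.

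Genes that work with these apolipoproteins were examined in 5 lists. Their counts are read against the 43.8% of all liver genes called, 38.3% higher and 5.49% lower, with a median of 0.33, and after median-ratio scaling against 32.2%. Without 1 library the calls over all genes moved as well, between 1401 without LKO 2 and 7036 without LKO 1. Of 8 other apolipoproteins, 7 were tested, of which 2 rose and 2 fell (57.1% called), with a median of -0.34. *Apoc2*, the activator of lipoprotein lipase, rose from 217, 175 and 194 FPKM in Ctrl to 515, 401 and 393 in LKO (log2 fold change 1.15, adjusted p 0.00227). Its annotated span overlaps a read-through transcript with the neighbouring *Apoc4*, which was at 913 to 991 FPKM in Ctrl and 756 to 908 in LKO. *Saa4*, the constitutive serum amyloid A of HDL, fell from 115, 131 and 148 FPKM to 76.2, 53.0 and 32.9 (-1.34, adjusted p 0.0112). *Apon* fell from 191, 189 and 190.1 FPKM to 148, 99.1 and 66.4 (-0.93, adjusted p 0.0272). *Clu*, which encodes apolipoprotein J, rose (0.51, adjusted p 0.0261); it and the further genes outside the 3 largest changes per list were named after their values had been seen. The count of 4 became 2 without LKO 2 or any 1 of the Ctrl libraries, and 6 without LKO 1. After median-ratio scaling 1 rose and 2 fell, with a median of -0.73.

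Of 22 partners of VLDL assembly and secretion, 7 rose and 1 fell (36.4% called), with a median of 0.20. *Soat2*, which esterifies cholesterol in the endoplasmic reticulum, was at 17.7 to 27.5 FPKM in Ctrl and 32.7 to 50.9 in LKO (0.98, adjusted p 0.0140). *Tm6sf2*, needed to lipidate VLDL, was at 15.6 to 17.9 and 28.8 to 36.3 FPKM (0.92, adjusted p 0.00232). *Lpcat3*, which makes polyunsaturated phospholipids, was at 33.0 to 44.3 and 57.6 to 70.4 FPKM (0.79, adjusted p 0.00699). *Sort1*, a sorting receptor that binds apolipoprotein B, was the member that fell (-0.47, adjusted p 0.0190). After median-ratio scaling 4 rose and 3 fell (31.8% called), with a median of -0.18. Both shares were near those of all genes. The count of 8 became 4 without Ctrl 1 or Ctrl 2, 3 without Ctrl 3, 2 without LKO 2 and 11 without LKO 1.

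Of 9 genes of HDL formation and remodelling, 3 rose and 2 fell (55.6% called), with a median of -0.11. *Pon1*, the HDL-bound paraoxonase, was at 463 to 518 FPKM in Ctrl and 218 to 339 in LKO (-0.82, adjusted p 0.0113), and *Lipc*, hepatic lipase, fell as well (-0.71, adjusted p 0.00461). *Abcg1*, a cholesterol exporter, was at 0.751 to 1.09 FPKM in Ctrl and 1.84 to 2.68 in LKO. *Pltp*, the phospholipid transfer protein, rose from 11.9 to 18.1 FPKM in Ctrl to 20.5 to 30.01 in LKO (0.77, adjusted p 0.0219). Its span overlaps that of *Ctsa*, at 38.6 to 39.7 FPKM in Ctrl and 43.8, 84.4 and 105 in LKO (0.88, adjusted p 0.0447), and without strand their shared reads cannot be told apart. The spans of *Lpcat3* and *Srebf1* likewise overlap those of *Emg1* and *Rai1*. Of 14 lipoprotein receptors and lipase regulators, 13 were tested and 7 rose (53.8% called), with a median of 0.48. *Lpl*, lipoprotein lipase, was at 8.35, 5.08 and 13.5 FPKM in Ctrl and at 55.5, 35.9 and 29.2 in LKO (2.09, adjusted p 0.00512). *Vldlr*, the VLDL receptor, was at 0.811, 0.353 and 0.237 FPKM in Ctrl and at 1.73, 2.40 and 4.37 in LKO. It reached the level tested through LKO alone, as *Abcg1* did but for 1 Ctrl library, so both are descriptions, although the counts hold them.

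Macrophages express *Lpl*, *Abcg1*, *Pltp*, *Apoc2* and *Apoe*, and all 9 macrophage markers were higher in the same libraries (summed 140.0 to 145 FPKM in Ctrl and 299.5 to 482 in LKO). Unlike the rest of these genes, *Apoe* was lower in each LKO liver library (13386 to 13674 FPKM, against 14130.4 to 15371 in Ctrl). The part of macrophages in these results was not tested. After scaling, 1 rose and 4 fell in the HDL list (median -0.48), and 2 rose and 3 fell in the receptor list (median 0.10). The HDL count of 5 became 2 without Ctrl 2 and 3 without Ctrl 3, LKO 2 or LKO 3. The receptor count of 7 became 3 without Ctrl 1 or LKO 3, 2 without Ctrl 2 or Ctrl 3 and 1 without LKO 2.

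**Figure D3:**
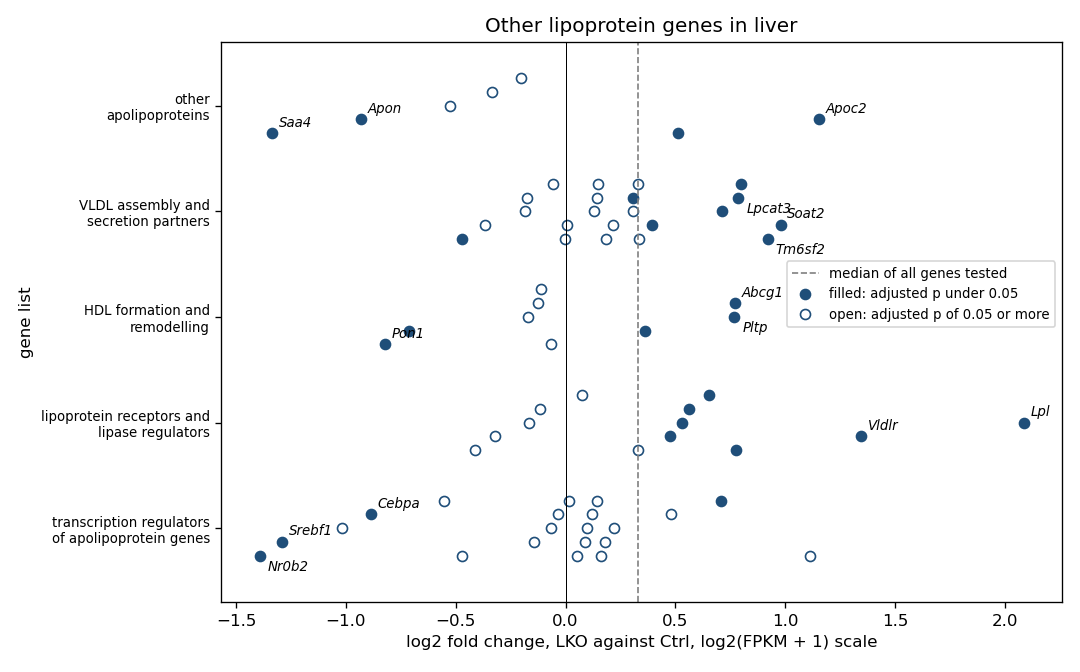
Log2 fold change in liver, LKO against Ctrl, of each tested gene of the 5 lists from the deposited FPKM, on the log2(FPKM + 1) scale, with the vertical offset within a list only separating points. Filled points had an adjusted p under 0.05, the dashed line is the median of all genes tested (0.33), *Lpl* at 2.09 lies farthest right and *Nr0b2* at -1.39 farthest left.

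Of 21 transcription regulators of apolipoprotein genes, 1 rose and 3 fell (19% called), with a median of 0.05. *Nr0b2*, the corepressor SHP, was at 42.1, 38.3 and 36.9 FPKM in Ctrl and at 34.5, 8.56 and 9.45 in LKO (-1.39, adjusted p 0.0451). *Srebf1*, which drives lipid synthesis genes, was at 109, 65.7 and 54.3 and at 43.9, 22.7 and 25.0 FPKM (-1.29, adjusted p 0.0188). *Cebpa*, a hepatocyte transcription factor, was at 113 to 137 FPKM in Ctrl and 53.0 to 78.9 in LKO (-0.89, adjusted p 0.00737). *Ppargc1a*, a coactivator, rose (0.71, adjusted p 0.00340). *Hnf4a*, the nuclear receptor that binds many apolipoprotein promoters, was at 153 to 196 FPKM in Ctrl and 139 to 180.2 in LKO (-0.07, adjusted p 0.711). The count of 4 became 2 without Ctrl 2, LKO 2 or LKO 3, and 6 without LKO 1. After median-ratio scaling 1 rose and 4 fell, with a median of -0.30. In iWAT, GM and hypothalamus no gene of the 5 lists was called by limma, and 11 (22.4%), 8 (19%) and 2 (4.55%) of those tested had an unadjusted p under 0.05, against 15%, 6.83% and 3.72% of all genes. Under other settings some were called in iWAT, and in GM 2 were called with all 24 libraries in 1 fit.

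In control mice the 10 genes were liver transcripts to differing degrees. For all 10, each Ctrl liver library lay above every Ctrl library of the other tissues. *Apob*, *Apoa5*, *Apom* and *Apoa4* reached 1 FPKM in fewer than 3 of those other libraries and entered the fit through liver alone, so their order was set by the filter and is a description. The other 6 were called higher in liver than in each other tissue (limma on log2(FPKM + 1), 12 libraries), as were 9.37% of all 15320 genes tested. *Apob*, *Apoa5*, *Apom* and *Apoa4* were under 0.5 FPKM in every Ctrl library of iWAT and hypothalamus. Their log2 differences from liver to those tissues were between 6.03 for *Apoa4* and 8.54 for *Apom*.

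*Apoe* was the most widely expressed. It was at 4998, 5735 and 5726 FPKM in Ctrl iWAT, at 1863, 1976 and 2490.3 in Ctrl hypothalamus and at 155, 144 and 110.0 in Ctrl GM. Liver exceeded iWAT by 1.43 on the log2 scale, hypothalamus by 2.82 and GM by 6.76, and all neighbours in that order differed (largest adjusted p 7.65e-06). *Apoc1*, its neighbour on chromosome 7, was at 252, 277 and 339.6 FPKM in Ctrl iWAT, 4.18 below liver on the log2 scale, and its levels in GM and hypothalamus did not differ beyond their spread (adjusted p 0.820). *Mttp* was higher in hypothalamus, at 8.15, 7.83 and 6.58 FPKM, than in iWAT (1.09, 1.44 and 1.81) or GM (1.31, 0.788 and 1.08), and the latter pair did not pass the test (adjusted p 0.0888). For *Apoc3* no pair of the 3 tissues other than liver passed the test (adjusted p 0.171 to 0.571), and its Ctrl GM values, 9.24, 1.14 and 8.35 FPKM, were high in the libraries high in albumin.

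**Figure D4:**
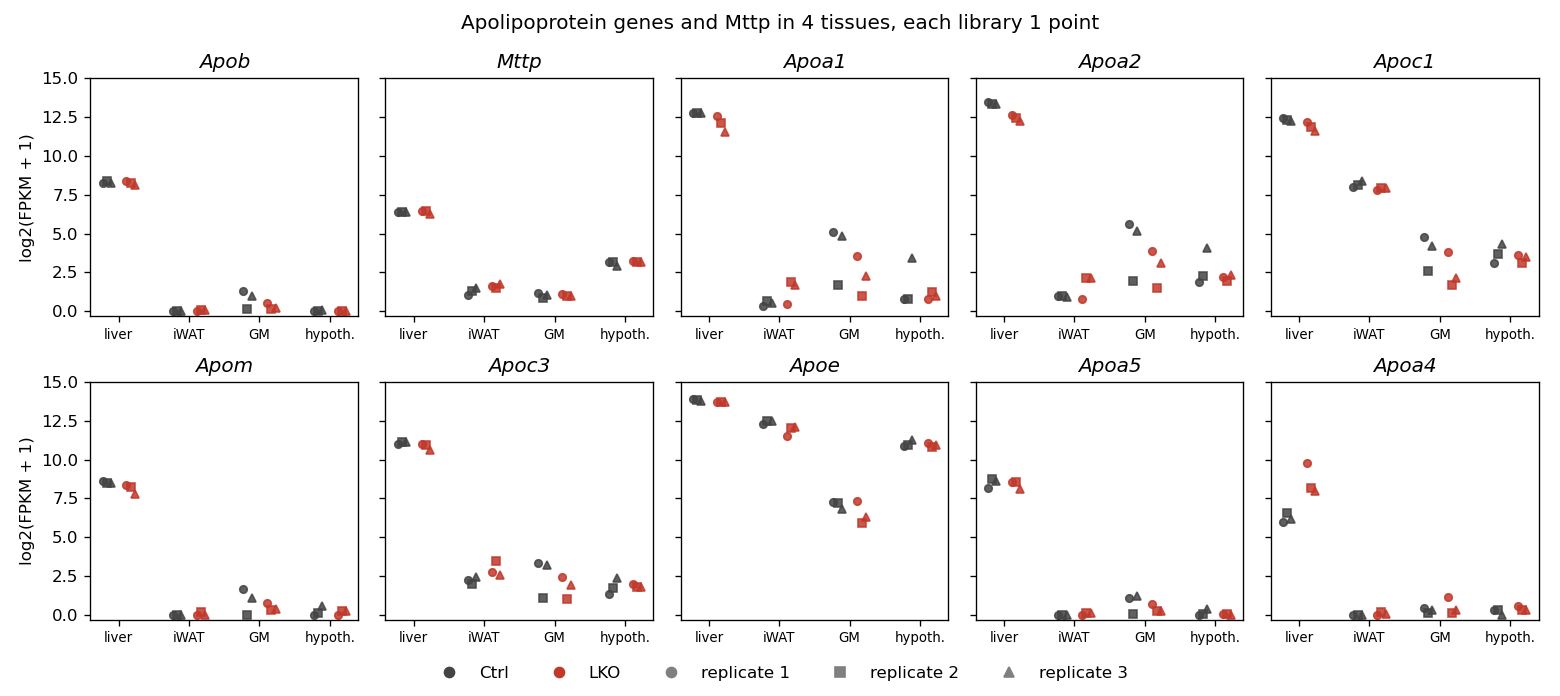
Level of the 10 genes as log2(FPKM + 1) in each of the 24 libraries, by tissue, with Ctrl in grey and LKO in red and the shape giving the replicate number. All 10 genes were highest in liver, *Apoe* was at 58.3 FPKM or more in every library, and *Apoa1* and *Apoa2* stood out in GM Ctrl 1 and 3 and in hypothalamus Ctrl 3.

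The difference between tissues in the LKO effect was tested over all 24 libraries. Only *Apoa4* passed among the 10 genes (F test, adjusted p 0.00155), as did 33.5% of 15849 genes tested. Its log2 fold change in liver exceeded that in iWAT by 2.31, in GM by 2.11 and in hypothalamus by 2.19. *Apoa4* was at 0 to 0.123 FPKM in iWAT, 0.0991 to 1.26 in GM and 0 to 0.465 in hypothalamus, and with a pseudocount of 0.1 in place of 1 the test was not passed (adjusted p 0.223). It entered the fit through liver alone, and on the log2(FPKM + 1) scale a change at such levels is held near 0, so the test does not compare the relative change of *Apoa4* between tissues. The same holds for *Apob*, *Apoa5* and *Apom*, which reached 1 FPKM in 1, 2 and 2 libraries outside liver. For the other 6 genes the adjusted p was between 0.181 and 0.522. After median-ratio scaling *Mttp* passed as well (adjusted p 0.0131), lower in liver than in iWAT by 0.78 and than in hypothalamus by 0.57 on the log2 scale.

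In iWAT, 4 of the 10 genes reached the level tested (1 FPKM in 3 of 6 libraries) and none was called, nor was any of 12288 genes (0%). Of all genes 15% had an unadjusted p under 0.05, and so did 3 of the 4. The groups did not overlap for any of the 4, against 20.8% of all genes. *Apoe* was at 2891, 4118 and 4389.8 FPKM in LKO, below the Ctrl libraries (log2 fold change -0.55, unadjusted p 0.0373, adjusted p 0.296). LKO 1 was the lowest, and without it the log2 fold change was -0.36. *Apoc1* was at 226, 242 and 246 FPKM in LKO (-0.27, adjusted p 0.371), and at -0.15 without Ctrl 3. Of 9 macrophage markers, 7 were tested in iWAT, and all 7 had negative log2 fold changes, from -0.81 to -0.15, with overlapping groups and none called. Their summed level was 328 to 726 FPKM in Ctrl and 308 to 401 in LKO, with *Clec4f* under 0.1 FPKM throughout, and their part in the *Apoe* values was not tested.

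*Apoc3* was at 3.75, 2.99 and 4.48 FPKM in Ctrl iWAT and at 5.67, 10.1 and 4.85 in LKO iWAT (0.69, unadjusted p 0.0307, adjusted p 0.275), and the log2 fold change was 0.41 without LKO 2. *Mttp* was at 2.15, 1.85 and 2.45 FPKM in LKO (0.37, unadjusted p 0.0331, adjusted p 0.281). Both lay above the Ctrl libraries by a small margin. *Fgb*, a hepatocyte gene, was at 0 to 0.0149 FPKM in Ctrl iWAT and at 0.159, 1.07 and 0.702 in LKO iWAT. *Apoa1* was also highest in LKO 2 and 3, at 2.78 and 2.29 FPKM, against 0.269 to 0.548 in the other iWAT libraries, and it did not reach the level tested. *Alb* was at 23.8, 13.1 and 12.8 FPKM in Ctrl and at 35.2, 46.9 and 49.2 in LKO iWAT, without overlap. The part of such transcripts in the *Apoc3* values was not tested.

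In GM, 6 of the 10 genes were tested. All 6 overlapped between the groups, while 11.6% of all genes did not. None was called, as was none of 10877 genes (0%), 6.83% of which had an unadjusted p under 0.05, as did 0 of the 6. *Apoa1* was at 33.6, 2.25 and 28.1 FPKM in Ctrl and at 10.7, 0.967 and 3.81 in LKO (-1.63, SE 0.99, adjusted p 0.832). *Apoa2* was at 47.3, 2.82 and 35.0 and at 13.5, 1.86 and 7.71 FPKM (-1.40, adjusted p 0.869). Replicate 2 was the lowest in both groups. These levels went with albumin, at 167, 13.7 and 125 FPKM in Ctrl and 65.6, 8.32 and 22.8 in LKO GM.

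The proportions among liver transcripts were compared with those in liver. Per 1000 FPKM of *Alb*, *Apoa1* was at 201 in GM Ctrl 1 and 225 in GM Ctrl 3, against 167 to 179.5 in Ctrl liver. *Apoa4* was at 1.98 and 1.75 in those libraries, against 1.56 to 2.204 in Ctrl liver, and at 19.2 in GM LKO 1, against 6.60 to 16.3 in LKO liver. In GM Ctrl 2 *Apoa4* was at 7.24, above Ctrl liver and within the range of LKO liver. It was at 12.65 and 11.67 in GM LKO 2 and 3. Of the 8 genes other than *Apoe* and *Mttp*, all 8 lay within 1.5-fold of the Ctrl liver mean in GM Ctrl 1 and in GM Ctrl 3, and 2 of 8 lay within 1.5-fold of the LKO liver mean in GM LKO 1. In GM Ctrl 2, LKO 2 and LKO 3, low in albumin, 3, 2 and 3 of 8 did. *Apoe* and *Mttp* were left out after their values had been seen, and were at 2.57 and 3.83 times the Ctrl liver mean in GM Ctrl 1 and at 2.43 and 4.24 times in GM Ctrl 3. Liver RNA and muscle transcription as sources of these reads cannot be told apart.

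**Figure D5:**
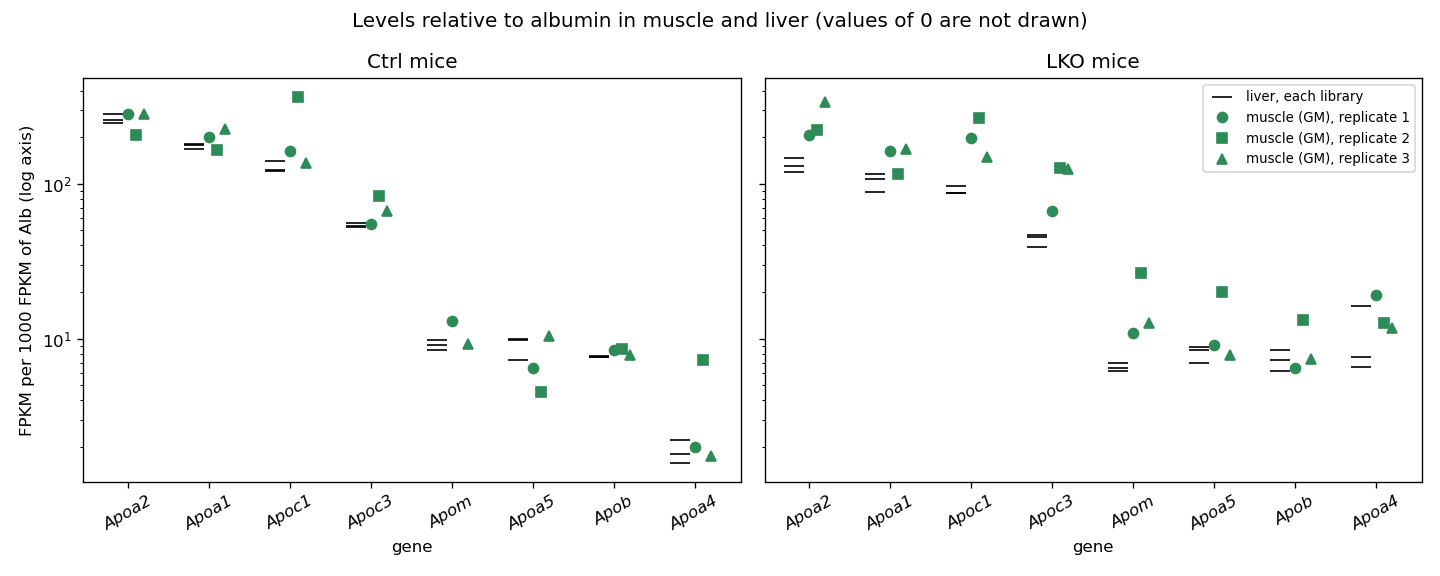
FPKM per 1000 FPKM of *Alb* on a log axis for the 8 genes other than *Apoe* and *Mttp*, in Ctrl mice (left) and LKO mice (right), with dashes for the 3 liver libraries and green points for the 3 GM libraries. GM Ctrl 1 and 3 lay within 1.5-fold of the mean of the liver dashes for all 8 genes. *Apoa4* was at 1.98, 7.24 and 1.75 in GM Ctrl 1, 2 and 3 and at 19.2, 12.65 and 11.67 in GM LKO 1, 2 and 3.

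Without the 3 GM libraries highest in albumin, a setting chosen after the values had been seen that leaves Ctrl 2 alone in its group and assumes that it varies like the LKO libraries, *Apoa2* was at 0.38 and *Apoc3* at 0.39, both opposite in sign to all 6 libraries, and no member was called. *Apoe* in GM was at 164, 58.3 and 77.0 FPKM in LKO (-0.57, adjusted p 0.835), and at -1.09 (adjusted p 0.183) without those libraries. *Apoc1* was at 27.1, 4.99 and 17.1 FPKM in Ctrl and 12.99, 2.22 and 3.38 in LKO (-1.32, adjusted p 0.795), and at -0.67 (adjusted p 0.374) without those libraries, and *Apoc3* had -0.76 (adjusted p 0.890). *Mttp* was at 1.21, 1.02 and 0.977 FPKM in LKO (0.01, adjusted p 0.996).

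In hypothalamus 5 of the 10 genes were tested and none was called, against 0.0217% of 13828 genes. All 5 overlapped between the groups, while 9.7% of all genes did not, and 0 of the 5 had an unadjusted p under 0.05. *Apoe*, an astrocyte product there, was at 2165, 1764 and 1929 FPKM in LKO (-0.10, SE 0.15, adjusted p 0.999), and *Mttp* was at 8.48, 8.09 and 8.04 (0.12, adjusted p 0.999). *Apoa2* was at 2.74, 3.80 and 15.6 FPKM in Ctrl and at 3.66, 2.88 and 3.95 in LKO, where Ctrl 3 alone stood apart. *Apoc1* was at 7.82, 12.2 and 19.6 FPKM in Ctrl and at 11.1, 7.49 and 10.49 in LKO. With all libraries *Apoa2* had a log2 fold change of -0.58 and *Apoc1* of -0.34, and without Ctrl 3 they had 0.08 and -0.03. *Apoc3* went from 0.04 to 0.33, again without a call.

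The genes with the nearest profile were found by the root mean square difference of log2(FPKM + 1), centred per gene, over 24 libraries. For *Apoa4* these were *Cyp4a14*, a fatty acid hydroxylase of a family with near-identical copies (difference 0.446), and *Krt8*, an epithelial keratin (0.571). *Cyp4a14* was at 88.3, 66.2 and 31.999 FPKM in Ctrl liver and at 328, 445 and 326 in LKO liver, and *Krt8* at 151.5, 108 and 125 and at 383, 454 and 463. In neither was LKO 1 the highest library, as it was for *Apoa4*. For *Apoa1* they were *Fabp1*, a fatty acid binding protein (0.292), and *Serpina1b*, an antitrypsin gene with close paralogues (0.361), and *Fabp1* was at 5294, 3202 and 1979 FPKM in LKO 1, 2 and 3. *Apob* and *Apoa5* shared *Cyp2a12* (0.105 and 0.155) and *C4bp* (0.125 and 0.174). For the others they were *Ttr* and *Serpina1d* for *Apoa2*, *Rbp4* and *Gsta3* for *Apoc1*, *Tdo2* and *Hpd* for *Apoc3*, *Fah* and *Aldh1l1* for *Apoe*, *Hrg* and *Proc* for *Apom*, and *Xylb* and *Gclc* for *Mttp*. The distances were set mainly by the difference between liver and the other tissues, which the 24 points share.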

How the data were processed

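Paired-end RNA sequencing (TruSeq v2, unstranded) was made from 24 libraries. Per the labels, the submitters' processing notes name Trimmomatic 0.32, HISAT2 2.0.5, Bowtie2 2.2.6, STAR 2.5.2b and StringTie 1.3.3b with mm10. The authors deposited FPKM in a joined table, and coverage signal, FPKM and TPM per library; no further scaling is stated. Coverage divided by FPKM gave the depth. Genes reaching 1 FPKM in 3 or more of a tissue's 6 libraries were tested with limma 3.58.1 (R 4.3.3; lmFit, eBayes with trend) on log2(FPKM + 1), LKO against Ctrl, with Benjamini-Hochberg adjustment over all genes tested. Tissue differences were fitted over all 24 or the 12 Ctrl libraries. Fold changes on this scale understate low genes. Ratios and sums were compared with exact permutation tests (scipy). The fit was tested on simulated data. Members and lists were chosen with earlier results of these data known. Named were all members in each tissue, up to 3 genes per list with the largest called change without overlap in liver (1 of these is not reported here), the 2 nearest profiles per member, and *Gadd45gip1*. Alternatives were another pseudocount, filter, unit, scaling or variance estimate, 1 common fit, a replicate block, and leaving out libraries.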

Additional observations from a re-analysis of the deposited data

Results flagged for a closer look

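The F test for a difference in the LKO effect between tissues was passed by *Apoa4* (limma over 24 libraries, adjusted p 0.00155), but not with a pseudocount of 0.1 in place of 1 (adjusted p 0.223). *Apoa4* entered this fit through liver alone and lay near 0 FPKM elsewhere, where log2(FPKM + 1) holds its change near 0, so the test does not show that its relative change differed. Its log2 fold change in liver, 2.39, exceeded those in iWAT, GM and hypothalamus by 2.31, 2.11 and 2.19, with all 3 LKO livers above all 3 Ctrl livers, while the highest *Apoa4* level was 1.26 FPKM among the libraries of the other tissues.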

How the results depend on the processing

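In liver, 2 of the 10 genes were called, 1 (*Apoa4*) with no filter on low values, with quantile normalization or with all 24 libraries in 1 fit, 1 (*Apoa2*) with ordinary variances, 8 with median-ratio scaling without LKO 1 (chosen after seeing the data), and 1 to 5 when 1 library was left out. The replicate block gave 2. Over all liver genes the 4794 calls became 2943 with a mean of at least 5 FPKM (fewer genes tested), 2319 with ordinary variances and 7541 in 1 fit of 24 libraries, and 3906 with the block. In iWAT, GM and hypothalamus the count of members was 0 under all alternatives run. Over all genes of those tissues the calls went from 0, 0 and 3 to 656, 28 and 25 in 1 fit of 24 libraries. In iWAT 14 genes were called with median-ratio scaling, 15 with quantile normalization, 115 without LKO 1 and 160 with that scaling and without LKO 1. In GM up to 13 were called without 1 library (LKO 1) and 18 without Ctrl 1 and 3 and LKO 1. In hypothalamus 0 to 9 were called without 1 library, 1 with the deposited TPM, and 0 with no filter, ordinary variances or the block. The F test between tissues was passed by 1 gene (*Apoa4*, where it does not compare relative change), by 0 with a pseudocount of 0.1 and by 2 with median-ratio scaling. The summed level after median-ratio scaling was different by -19.88 in units of 1000 scaled FPKM, LKO minus Ctrl, and the change in share was between -1.71 and -1.03 percentage points without 1 library. Over the 25 gene and tissue pairs tested, 351 alternative values kept direction and call, 9 gained and 6 lost a call at the same sign, and 23 changed sign, of which 1 (*Mttp*) also gained a call. With quantile normalization, which sets values by rank, liver *Apoa1*, *Apoc1*, *Apoc3* and *Mttp* turned to 0.023, 0.28, 0.27 and -0.15. With the deposited TPM, *Apoa5*, *Apob* and *Apoe* turned to 0.027, 0.095 and 0.00020. With median-ratio scaling *Mttp* turned to -0.39, and to -0.47 also without LKO 1. In GM, without Ctrl 1 and 3 and LKO 1, *Apoa2* was at 0.38 and *Apoc3* at 0.39. Leaving out 1 library gave ranges across 0 for liver *Apoa5* (-0.26 to 0.044), *Apob* (-0.081 to 0.036) and *Mttp* (-0.033 to 0.059), GM *Mttp* (-0.087 to 0.098), and hypothalamus *Apoa2* (-0.999 to 0.077), *Apoc3* (-0.20 to 0.33) and *Apoe* (-0.19 to 0.021). The cause of these changes was not tested.

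The replicate numbers were not taken as pairs, since no tissue had all 3 correlations of deviations between same-numbered libraries over 0.1. They were 0.15, 0.03 and 0.04 in liver, 0.30, -0.12 and 0.20 in iWAT, 0.35, 0.05 and 0.16 in GM and -0.13, 0.14 and 0.09 in hypothalamus. With 3 candidates for each library, 13 of 24 correlated best with their own number. A pairing is not excluded by these values, and in GM the block lowered the SE of *Apoa1* from 0.99 to 0.35. With the replicate block, liver *Apoa2* and *Apoa4* had adjusted p-values of 0.0198 and 0.00953. In GM the block gave 4 of 6 members (*Apoa1*, *Apoa2*, *Apoc1* and *Apoc3*) an unadjusted p under 0.05, where 0 had one without it, and none was called (lowest adjusted p 0.359). FPKM hold no counts, so no counting error can be given, and 3 libraries a group limit all tests.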
